A study of Rattus norvegicus with 8 samples.

Results

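The genes described here are those of the urea cycle and of the glutamine and ammonia handling around it in rat liver. The list holds 10 genes, chosen by name, and a gene was measured where a probe set of the array carries its symbol and no other. By this rule 9 of the 10 were measured, each by 1 probe set, among 14511 named genes in all. They were Nags, Cps1, Otc, Ass1, Asl, Arg1, Slc25a15, Gls2 and Rhbg, and Glul was not analysed here.

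Livers of male Wistar rats aged 6 to 10 weeks were perfused with Krebs-Henseleit medium, which is a physiological salt buffer, and RNA was hybridised to 8 Affymetrix whole-transcript arrays. The buffer was normoosmotic (305 mosm/L) for 4 samples and hypoosmotic (225 mosm/L) for 4, and all samples belong to the 180 min time point. The hypoosmotic buffer makes liver cells take up water and swell, and the comparison asks how the transcripts of nitrogen disposal differ between the buffers. Whether each sample was a separate animal is not stated in the labels, so the spread behind each p-value may be technical in part or in whole. Whole perfused liver holds several cell types, and in such RNA fewer cells of a type and less RNA per cell cannot be told apart.

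The urea cycle turns toxic ammonia into urea and in mammals runs in full almost only in liver. Hepatocytes around the portal inflow make urea and split glutamine, while a thin layer of hepatocytes around the hepatic vein binds the ammonia that escapes into glutamine. In perfused rat liver, swelling in dilute buffer is known to stimulate glutamine breakdown. Flux through the cycle depends on the amounts of its enzymes and on N-acetylglutamate, the activator of its first step.

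The 3 sequences below are the 250 bases before the annotated start of Nags, the activator gene that had the largest change, of Rhbg, which also rose, and of Cps1, whose enzyme Nags serves and whose level was close in both groups. They are RefSeq sequences of the build GRCr8, read along the gene's own strand: chr10:87598266-87598515 (plus strand), chr2:176015150-176015399 (minus strand) and chr9:76063613-76063862 (plus strand). Capitals mark GGGCGG (the GC box bound by Sp1 family factors), TGGAAA (the core of the osmotic response element bound by Nfat5) and CAAAGNNCA (an HNF4 core), on either strand.
Nags: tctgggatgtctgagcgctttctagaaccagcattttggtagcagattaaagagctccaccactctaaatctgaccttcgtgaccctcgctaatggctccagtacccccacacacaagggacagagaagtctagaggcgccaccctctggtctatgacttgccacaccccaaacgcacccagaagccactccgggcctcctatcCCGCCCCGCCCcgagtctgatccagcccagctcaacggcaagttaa
Rhbg: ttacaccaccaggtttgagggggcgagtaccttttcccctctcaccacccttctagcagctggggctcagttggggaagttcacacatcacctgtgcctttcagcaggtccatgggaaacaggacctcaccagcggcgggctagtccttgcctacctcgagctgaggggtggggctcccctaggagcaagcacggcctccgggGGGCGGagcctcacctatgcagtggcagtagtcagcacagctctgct
Cps1: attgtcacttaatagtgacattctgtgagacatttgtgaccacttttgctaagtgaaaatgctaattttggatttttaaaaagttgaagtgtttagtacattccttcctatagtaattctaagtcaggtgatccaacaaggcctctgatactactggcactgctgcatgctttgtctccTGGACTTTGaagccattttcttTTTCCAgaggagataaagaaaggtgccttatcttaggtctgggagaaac
The Nags window held 2 GC boxes, 36 to 41 and 41 to 46 bases before the start, which share 1 base. The Rhbg window held 1 GC box, 42 to 47 bases before the start. The Cps1 window held no GC box, but 1 TGGAAA 44 to 49 bases and 1 CAAAGNNCA 63 to 71 bases before the start. Of all 33469 such windows in the table, 30.5% held a GC box, 19.7% TGGAAA and 5.22% CAAAGNNCA. A match is a description of the letters and not a binding site. The searched motifs CCAAT (the box bound by NF-Y), the cyclic AMP response element core TGACG, the C/EBP core TTGCNNAA and the FOXA core TGTTTAC had 0 matches on either strand in each of these 3 windows, and are held by 34.0%, 18.2%, 9.22% and 3.21% of all windows. The windows of Slc25a15 and Ass1 are not shown because their listed starts lie 2833 and 4965 bases inside the annotated genes. GC boxes were not limited to genes that rose. Among windows not shown, that of Asl held 1 and that of Gls2 at chr7:1201629-1201878 held 2, and neither gene passed. The windows of Slc25a15, which rose, and of Otc and Ass1, which did not pass, held 0 GC boxes. TGGAAA was not limited to Cps1 either. That of Otc held 1, that of Gls2 at chr7:1201629-1201878 held 1 and another Gls2 window, at chr7:1206874-1207123, held 2. A window was found for 9 of the 10 listed genes, the other being Arg1.

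The hypoosmotic and normoosmotic arrays lay on opposite sides of 0 on the first principal component (34.7% of the variance), and hypoosmotic replicate 3 stood apart from the other 7 on the second (18.9%). Across genes, which are not independent replicates, arrays of a group correlated at 0.984 to 0.992. Without hypoosmotic replicate 3 Arg1, Slc25a15 and Rhbg still passed and Nags had a limma adjusted p of 0.0545.

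Nags, Slc25a15, Arg1 and Rhbg rose in hypoosmotic livers, by 2.50-fold, 1.76-fold, 1.69-fold and 1.42-fold, while Cps1, Otc, Ass1 and Asl, which encode the enzymes of the cycle from carbamoyl phosphate to arginine, had changes between -0.06 and 0.01 on the log2 scale. In all, 4 of the 9 measured genes rose, 0 fell and 5 did not pass (limma, Benjamini-Hochberg adjusted p under 0.05 over all genes). Among all 14511 genes the share called was 7.07%, with 2.45% higher and 4.62% lower. The genes were chosen with earlier results of these data known, so the count is a description. The median change of the 9 genes was 0.40, against 0.02 for all genes. Of all calls 65.3% were falls. The share was 75.5% with each array centred on its median and 60.7% with further quantile normalization, and in both the same count of 4 genes rose.

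**Figure D1:**
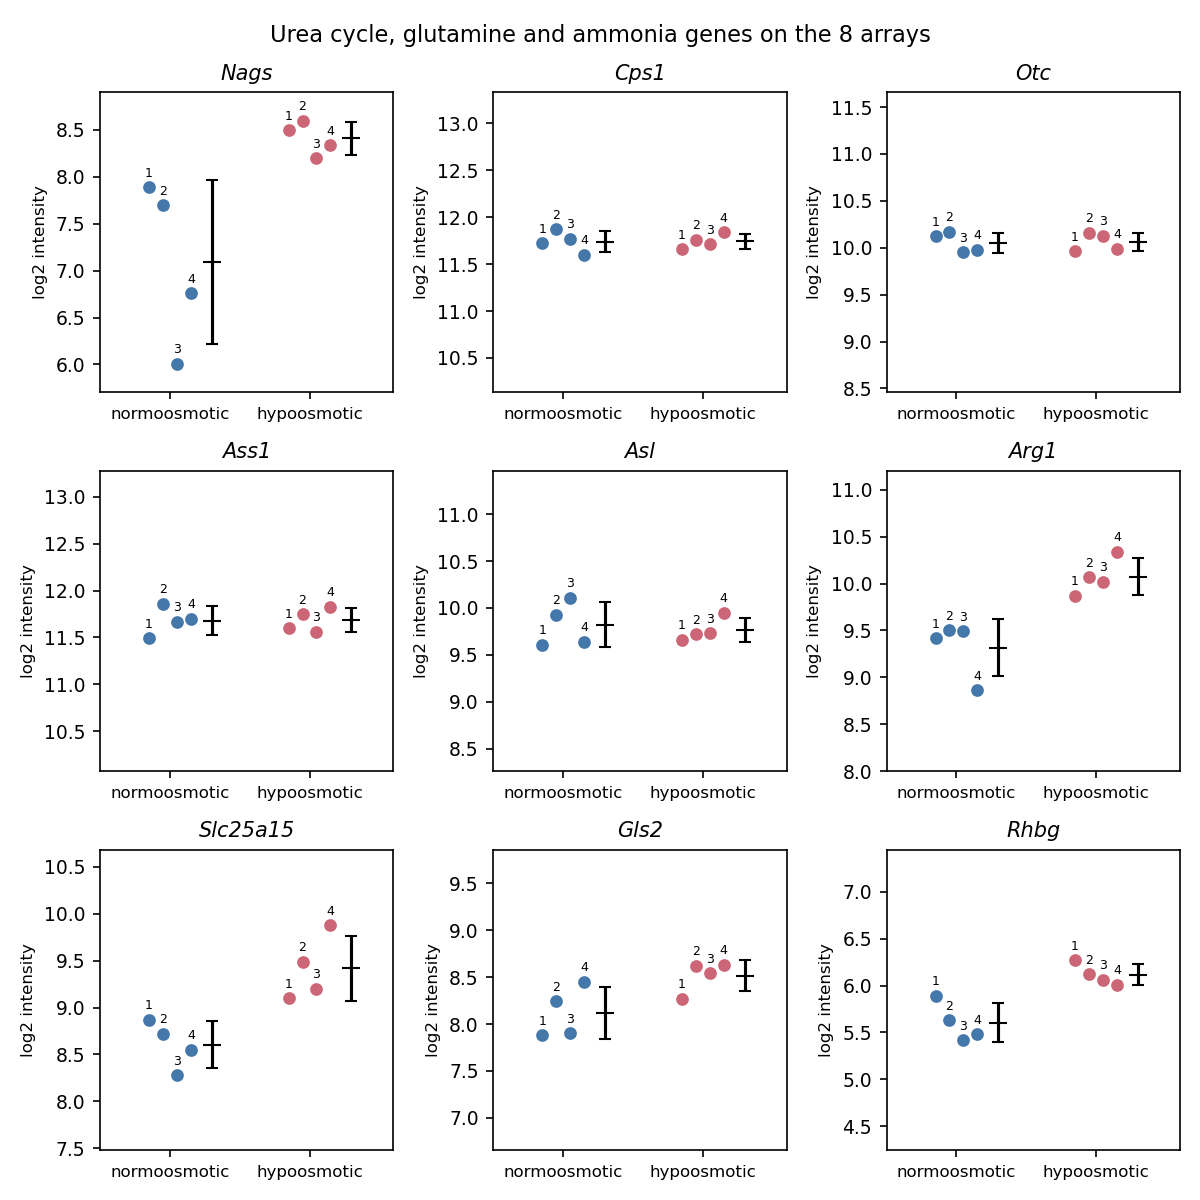
Log2 intensity of the 9 measured genes (y axes, each spanning the same range of log2 units) in the 4 normoosmotic (blue) and 4 hypoosmotic (red) arrays, with the replicate number above each point and the mean ± SD beside each group. The groups stand apart for Nags, Arg1, Slc25a15 and Rhbg and overlap for Cps1, Otc, Ass1, Asl and Gls2, and the normoosmotic Nags values run from 6.01 to 7.89.

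Nags encodes N-acetylglutamate synthase, the mitochondrial enzyme that makes the obligatory activator of carbamoyl phosphate synthetase. Its log2 intensities were 7.89, 7.70, 6.01 and 6.76 in normoosmotic replicates 1 to 4 and 8.50, 8.60, 8.20 and 8.34 in hypoosmotic replicates 1 to 4. Each hypoosmotic value lay above each normoosmotic one, with normoosmotic replicates 3 and 4 the lowest. The means were 7.09 ± 0.87 and 8.41 ± 0.18 (SD, n = 4 each). This is a log2 change of 1.32 ± 0.34 (SE, 95% interval 0.58 to 2.06) with a limma adjusted p of 0.0403. The normoosmotic spread was wide for this data set, since 99.7% of genes had a smaller SD in that group, while the hypoosmotic SD was larger than that of 46.9% of genes. The call was the least stable of the rises. With 1 array left out Nags passed without normoosmotic replicate 1 (limma adjusted p = 0.0253) and without normoosmotic replicate 2 (limma adjusted p = 0.0379), and the other 6 fits gave limma adjusted p-values from 0.0545 to 0.110. It also missed the threshold with an intensity trend and robust variances (limma adjusted p = 0.0732) and with all probe sets tested (limma adjusted p = 0.0552).

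Cps1, the mitochondrial carbamoyl phosphate synthetase that N-acetylglutamate switches on, had log2 intensities of 11.72, 11.87, 11.77 and 11.60 in normoosmotic and 11.66, 11.76, 11.71 and 11.84 in hypoosmotic livers. The groups overlapped almost completely, with a log2 change of 0.00 (95% interval -0.22 to 0.22). Otc, which joins carbamoyl phosphate to ornithine in the mitochondrion, lay between 9.95 and 10.17 in normoosmotic and between 9.96 and 10.16 in hypoosmotic livers, with a 95% interval of the log2 change from -0.22 to 0.23. Its groups covered nearly the same range. Ass1, argininosuccinate synthase, which brings in the second nitrogen from aspartate, went from 11.68 ± 0.15 to 11.69 ± 0.13 (SD, n = 4 each), with a 95% interval of the log2 change from -0.24 to 0.25. Asl, the lyase that then releases arginine, lay between 9.61 and 10.11 in normoosmotic and between 9.66 and 9.95 in hypoosmotic livers, with a 95% interval of the log2 change from -0.35 to 0.23. Changes within these intervals remain compatible with the values of 4 arrays a group. The intervals are not a limit of detection, since the larger change of Gls2, 0.40, did not pass either (limma adjusted p = 0.142). The highest value on any array was 13.34, and whether bright probe sets such as that of Cps1 understate differences was not tested.

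Arg1, the cytosolic arginase that splits arginine into urea and ornithine, had log2 intensities of 9.42, 9.50, 9.49 and 8.86 in normoosmotic and 9.87, 10.07, 10.02 and 10.34 in hypoosmotic livers. Every hypoosmotic array was higher, by at least 0.37 between the closest values, and normoosmotic replicate 4 lay well below the other 3. The change of 0.76 ± 0.16 (SE, 95% interval 0.41 to 1.11) had a limma adjusted p of 0.0183. Arg1 passed whichever of the 8 arrays was left out (limma adjusted p from 0.0280 to 0.0483), the only one of the 9 genes to do so. Slc25a15, the carrier that returns ornithine to the mitochondrion in exchange for citrulline, had values of 8.87, 8.72, 8.28 and 8.55 in normoosmotic and 9.10, 9.49, 9.20 and 9.88 in hypoosmotic livers. The groups did not overlap, with hypoosmotic replicate 4 the highest. The change was 0.81 ± 0.18 (SE, 95% interval 0.42 to 1.21; limma adjusted p = 0.0233). It missed the threshold without normoosmotic replicate 3 (limma adjusted p = 0.0705), normoosmotic replicate 4 (limma adjusted p = 0.0630) or hypoosmotic replicate 2 (limma adjusted p = 0.0636). The mitochondrial arginase gene Arg2, an isoform with little expression in hepatocytes, was at 2.49 ± 0.04 and 2.55 ± 0.20, below the near-background level of 3.07, under which 95% of 1105 odorant receptor genes lay.

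**Figure D2:**
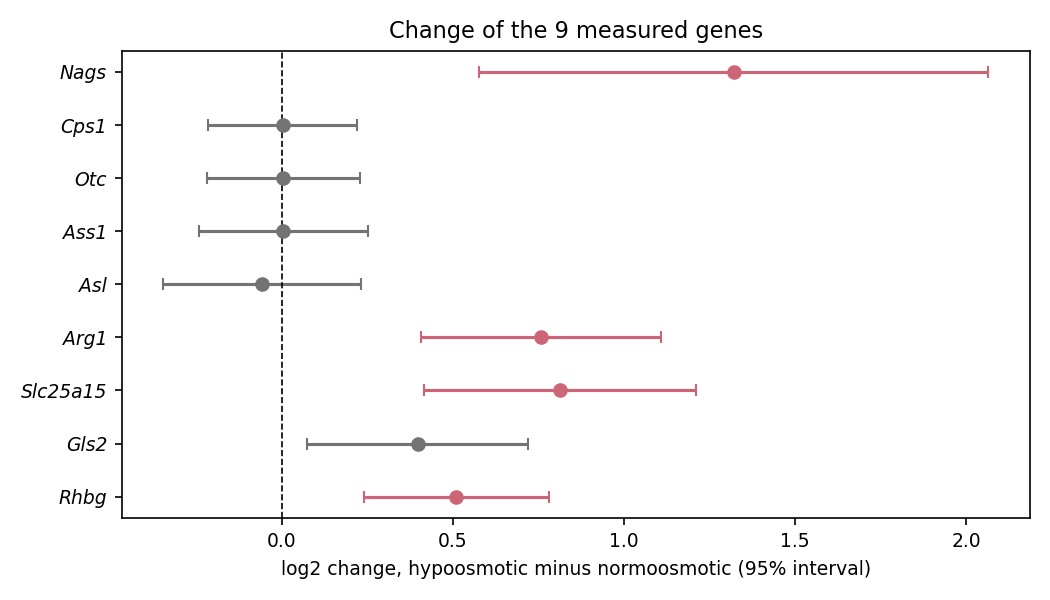
Log2 change of each measured gene, hypoosmotic minus normoosmotic (x axis), with its 95% interval from limma. Red points passed the adjusted threshold and grey ones did not, and the intervals of Cps1, Otc, Ass1 and Asl lie around 0 while that of Nags, from 0.58 to 2.06, is the widest.

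Gls2 and Rhbg stand at the entry of ammonia. Gls2, the liver-type glutaminase of periportal mitochondria, releases ammonia from glutamine next to Cps1. Its log2 intensities were 7.88, 8.24, 7.90 and 8.45 in normoosmotic and 8.27, 8.62, 8.54 and 8.63 in hypoosmotic livers. The highest normoosmotic value lay above the lowest hypoosmotic one. The change was 0.40 ± 0.15 (SE, 95% interval 0.07 to 0.72) with a limma adjusted p of 0.142, and it did not pass in any of the 8 fits that left out 1 array (limma adjusted p from 0.0729 to 0.321). Rhbg, an ammonia channel of the Rhesus family that in liver marks perivenous hepatocytes, had values of 5.89, 5.63, 5.42 and 5.48 in normoosmotic and 6.27, 6.12, 6.06 and 6.01 in hypoosmotic livers. Each hypoosmotic array lay higher, with a gap of 0.12 between the closest values. The change of 0.51 ± 0.12 (SE, 95% interval 0.24 to 0.78) had a limma adjusted p of 0.0314. Rhbg passed in 3 of the 8 fits without 1 array, and missed the threshold without normoosmotic replicate 2 (limma adjusted p = 0.0665), 3 (0.0967) or 4 (0.0868) or hypoosmotic replicate 1 (0.0827) or 2 (0.0748). In all, the groups did not overlap, hypoosmotic above, for 4 of the 9 genes and for 5.33% of all genes, and hypoosmotic below for 0 of the 9 and 8.21% of all genes. Tested against a minimum fold change of 1.2 with limma, 0 of the 9 genes and 0.572% of all genes passed, and at an unadjusted p under 0.05 in the main test 5 of the 9 and 20.7% of all genes did.

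The unequal change along the pathway was tested by taking, on each array, the difference between neighbouring members. Of 8 pairs set by the order of the pathway, 7 could be formed. Values of different probe sets have no common scale, so only the shift of a difference between the groups has a meaning. The difference of Nags and Cps1 shifted by 1.32 in hypoosmotic livers, that of Slc25a15 and Otc by 0.81 and that of Asl and Arg1 by -0.82. In each of these 3 pairs the 4 hypoosmotic arrays lay apart from the 4 normoosmotic ones. Each had an exact two-sided permutation p of 0.0286, the smallest that 4 arrays against 4 allow, which became 0.0667 after Benjamini-Hochberg adjustment over the 7 pairs and did not pass. With 7 pairs, at least 5 would have to reach that smallest p for any to pass, so the adjusted values say little here. The shifts with Cps1, Otc and Asl also restate the changes of Nags, Slc25a15 and Arg1, since Cps1, Otc and Asl had changes near 0. For the other 4 pairs, Cps1 with Otc, Otc with Ass1, Ass1 with Asl and Arg1 with Slc25a15, the shifts were between -0.06 and 0.06, with exact permutation p-values from 0.743 to 1.0. Arg1 and Slc25a15, which make and move ornithine, thus had within-array differences of 0.71 ± 0.38 and 0.66 ± 0.17 (SD, n = 4 each) in the normoosmotic and hypoosmotic groups.

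**Figure D3:**
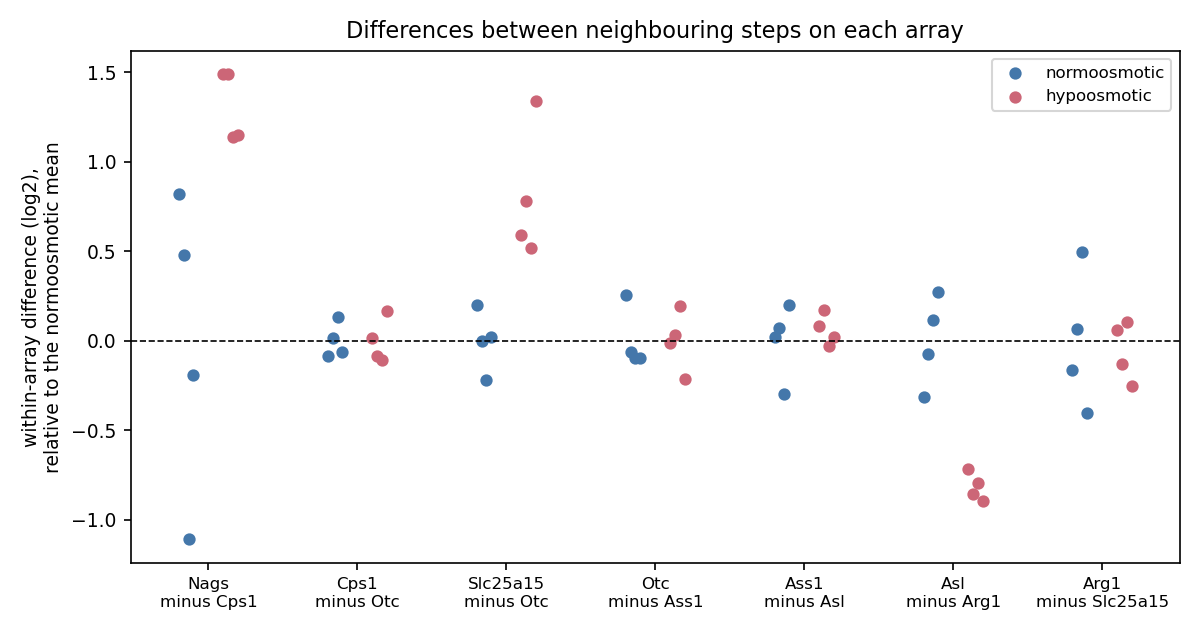
Within-array difference in log2 intensity between neighbouring members (y axis, relative to the normoosmotic mean of each pair) for 7 pairs (x axis), with normoosmotic arrays in blue and hypoosmotic arrays in red. The groups stand apart for Nags minus Cps1, Slc25a15 minus Otc and Asl minus Arg1, and mix for the other 4 pairs.

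Around the cycle, 1 gene that brings nitrogen to it passed. Of 14 measured genes of nitrogen entry and transamination 1 rose, 0 fell and 13 did not pass, and all 14 changes were above 0, against 53.7% of all genes, with a median of 0.23. For 2 of the 14 the sign turned when 1 array was left out, and the share called was close to that of all genes. Gpt2, the mitochondrial alanine aminotransferase, lay between 6.31 and 6.49 in normoosmotic and at 6.75 or above in hypoosmotic livers, and rose by 0.51 ± 0.10 (SE, limma adjusted p = 0.0157). Without normoosmotic replicate 3 its limma adjusted p was 0.0512. Glud1, glutamate dehydrogenase, which frees ammonia from glutamate in mitochondria, had a change of 0.11 ± 0.09 (SE, limma adjusted p = 0.600). Oat, ornithine aminotransferase, a perivenous enzyme that withdraws ornithine, had one of 0.24 ± 0.23 (SE, limma adjusted p = 0.652), with normoosmotic values from 8.43 to 9.54.

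Among the transporters of these metabolites 1 gene passed. Of 21 measured genes for the transport of glutamine, glutamate, aspartate, cationic amino acids, ammonia and urea 0 rose, 1 fell and 20 did not pass, with a median change of -0.07. The gene that fell was Slc38a2, a sodium-coupled carrier of glutamine and other neutral amino acids that cells induce in hyperosmotic medium. It lay between 9.67 and 10.17 in normoosmotic and between 8.35 and 9.15 in hypoosmotic livers, a change of -1.18 ± 0.18 (SE, limma adjusted p = 0.00646). Slc38a3, the glutamine transporter typical of hepatocytes, had a change of -0.05 ± 0.10 (SE, 95% interval -0.27 to 0.17). Among 15 related enzymes and regulators 1 rose, 0 fell and 14 did not pass, with a median of 0.16. For comparison with both lists, 2.45% of all genes rose and 4.62% fell. Sirt5, a mitochondrial deacylase known to act on the Cps1 protein, lay between 5.74 and 5.87 in normoosmotic and between 6.06 and 6.32 in hypoosmotic livers. It rose by 0.44 ± 0.10 (SE, limma adjusted p = 0.0252), but passed in only 2 of the 8 fits without 1 array, those without hypoosmotic replicates 3 or 4, and the other 6 reached at most a limma adjusted p of 0.0693. Car5a, the mitochondrial carbonic anhydrase that provides bicarbonate to Cps1, had a change of -0.19 ± 0.13 (SE, limma adjusted p = 0.492).

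Several transcription factors known to act on urea cycle genes changed. Of 19 measured factors and receptors 3 rose, 1 fell and 15 did not pass, with a median of 0.11. Among all genes 2.45% rose and 4.62% fell. The list was chosen with earlier results of these data known, so the count is a description. Foxa2, a forkhead factor of hepatocytes, lay between 4.48 and 5.29 in normoosmotic and between 5.97 and 6.29 in hypoosmotic livers, a rise of 1.13 ± 0.17 (SE, limma adjusted p = 0.00500). Nfyb, a subunit of the factor that binds CCAAT boxes, rose by 1.02 ± 0.18 (SE, limma adjusted p = 0.00931). Ppargc1a, a coactivator of the fasting response, rose by 1.17 ± 0.23 (SE, limma adjusted p = 0.0132). All 3 passed whichever array was left out. Nfya and Nfyc, further subunits of the CCAAT-binding factor, did not pass. Their changes were 0.28 (limma adjusted p = 0.260) and 0.06 (limma adjusted p = 0.808), and they were named after their values were seen. Creb1, the factor that responds to cyclic AMP, fell by 0.55 ± 0.12 on the log2 scale (SE, limma adjusted p = 0.0204), but missed the threshold without normoosmotic replicate 1 (0.0539), 2 (0.0556) or 4 (0.0518). Hnf4a, a nuclear receptor needed for urea cycle gene expression in mouse liver, had a change of 0.48 ± 0.18 (SE, limma adjusted p = 0.146), and its groups overlapped.

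**Figure D4:**
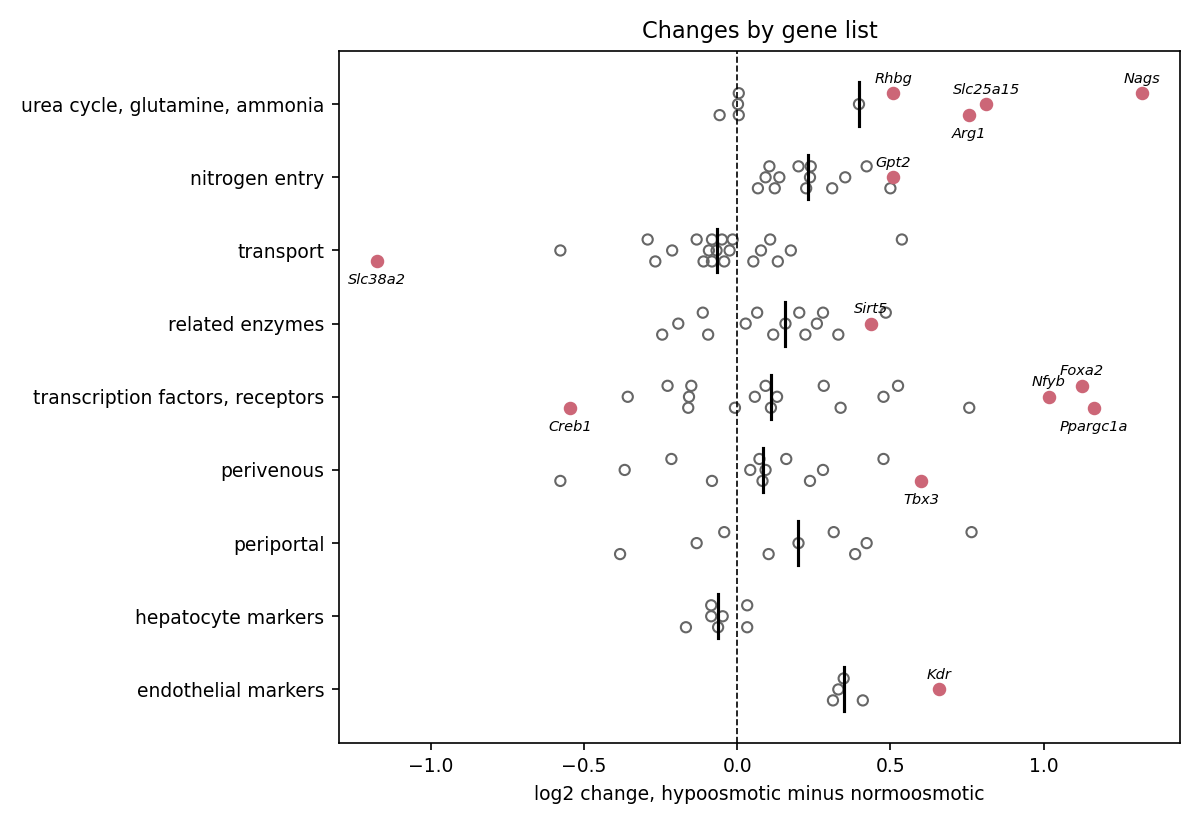
Log2 change of each measured gene, hypoosmotic minus normoosmotic (x axis), by gene list (rows), with the list's median as a black bar. Filled red points passed the adjusted threshold and are named. The medians run from -0.07 for transport to 0.40 for the urea cycle list. They are 0.35 for the endothelial markers, 0.23 for nitrogen entry, 0.20 for the periportal genes and -0.06 for the hepatocyte markers.

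Among the genes of the liver zones 1 passed. Of 13 measured perivenous genes 1 rose, 0 fell and 12 did not pass, with a median of 0.08, where 7.07% of all genes were called. The rise was that of Tbx3, a transcription factor (0.60 ± 0.16 SE, limma adjusted p = 0.0493), which passed in 1 of the 8 fits without 1 array, that without hypoosmotic replicate 4. Tbx3 also missed the threshold with an intensity trend and robust variances (limma adjusted p = 0.0502), further quantile normalization (0.0628), median centring (0.0552) and all probe sets tested (0.0679). Of the 13 genes 3 had an unadjusted p under 0.05 (limma), Tbx3, Slc1a2 and Lgr5, the last 2 named after their values were seen. Slc1a2 went down, by -0.58 (limma adjusted p = 0.137), with each hypoosmotic value below each normoosmotic one. Lgr5 changed by 0.28 (limma adjusted p = 0.218), at means of 2.14 and 2.42, below the near-background level of 3.07. Of 9 periportal genes 0 passed (limma), 1 had an unadjusted p under 0.05, and the median was 0.20. Their mean level lay between 7.22 and 7.64 in normoosmotic and between 7.19 and 8.38 in hypoosmotic arrays. Pck1 and G6pc1, named after their values were seen, were highest in hypoosmotic replicate 3, at 10.66 and 9.59. Their changes were 0.385 and 0.765, and fell as low as -0.57 and -0.19 with 1 array left out. The smallest p-values of the periportal genes belonged to Cdh1, E-cadherin, with -0.38 ± 0.15 (SE, limma adjusted p = 0.179), and Hal, histidase, with 0.20 ± 0.12 (SE, limma adjusted p = 0.418). Without normoosmotic replicate 1 Cdh1 passed, at -0.54 (limma adjusted p = 0.0356). The liver label was borne out by the 7 hepatocyte markers, albumin among them, whose mean level lay between 12.27 and 12.37 in normoosmotic and between 12.25 and 12.30 in hypoosmotic arrays, and of which 0 passed. Of 5 measured endothelial markers all 5 changes were above 0, against 53.7% of all genes, with a median of 0.35. Of these 5 markers 3 had an unadjusted p under 0.05 (limma), against 20.7% of all genes. The 1 that rose was Kdr, a receptor for vascular endothelial growth factor (0.66 ± 0.15 SE, limma adjusted p = 0.0280). Kdr was named after its value was seen and passed in 2 of the 8 fits without 1 array. The mean endothelial level lay between 6.67 and 6.94 in normoosmotic and between 6.92 and 7.50 in hypoosmotic arrays, and its part in the changes above was not tested. Of the markers of cholangiocytes (5 measured), macrophages (7), stellate cells (7), erythroid cells (3) and lymphocytes (3) 0 passed (limma), and 2, both of stellate cells, had an unadjusted p under 0.05.

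The genes whose pattern over the 8 arrays was most like that of a member were found by the root mean square difference of values centred on each gene's mean. For Nags these were Lrig2, S1pr1 and Akr7a3, at 0.35, 0.36 and 0.40 log2 units, where Nags itself varied by 0.86 around its mean. For Arg1 they were Prim1, Cgrrf1 and Apbb3, at 0.11, 0.13 and 0.14 against 0.44. For Slc25a15 they were Ndufaf1, Lynx1 and Qdpr, at 0.14, 0.17 and 0.17 against 0.48. Of the 3 genes most like Nags, Lrig2, the nearest, did not pass, with a change of 0.90 (limma adjusted p = 0.111). Akr7a3 rose by 0.93 (limma adjusted p = 0.0401) and S1pr1 by 1.39 (limma adjusted p = 0.0184). S1pr1, a sphingosine 1-phosphate receptor known for its expression in endothelial cells, is not on the endothelial list used here. Whether the endothelial share of the RNA has a part in the pattern of Nags was not tested.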

How the data were processed

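RNA of perfused rat liver was measured on 8 Affymetrix arrays, 4 per buffer, with groups and replicate numbers taken from the sample titles. The authors deposited log2 expression values for 27596 probe sets. RMA, Transcriptome Analysis Console 4.0 and Affymetrix Expression Console are named, per the submitters' processing notes. RMA is known to equalise arrays, so a shift common to the whole array is lost. Array medians lay between 3.92 and 4.05. The genome build is not given in the sources used here. The number of arrays limits the precision.

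Names came from the platform annotation: 15316 had 1 symbol, 317 several, and 11963 were not named here. For 528 genes with several probe sets the one with the highest mean was used, which left 14511 genes. The buffers were compared by limma 3.58.1 under R 4.3.3 (eBayes after lmFit, group as the only term, Benjamini-Hochberg over all genes, threshold 0.05). Neighbouring members were compared by exact permutation over arrays, adjusted over 7 pairs. Python 3.11.15, pandas 2.3.3 and matplotlib 3.10.9 were used for tables and plots. The fit was tested on simulated data.

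The members and lists were chosen with earlier results of these data known. All members are named. From each other list up to 4 genes that passed are named, or the 2 with the smallest p, and 9 genes were to be named whatever their value, of which 8 were measured. Alternatives tried were array weights, robust variances with an intensity trend, the replicate number as a block, quantile normalization, median centring, leaving out the dimmest 30%, averaging probe sets, testing all probe sets, a minimum fold change of 1.2 and leaving out each array.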

Additional observations from a re-analysis of the deposited data

Results flagged for a closer look

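Of 52 groups of 4 arrays, 2 for each of 26 named genes, 4 held an array whose gap to its nearest neighbour was above Dixon's 95% critical value for its share of the range, where chance flags about 1 in 20, or 2.6 here. All 4 were normoosmotic, but the other genes of the lists were not tested in this way. Among those, 4 named after their values were seen had a hypoosmotic array far above the rest. Got1 was 10.01 in hypoosmotic replicate 4, where the other 3 lay between 9.02 and 9.05. Foxo3 was 7.44 in hypoosmotic replicate 3, where the other 3 lay between 6.18 and 6.23. Pck1 was 10.66 and G6pc1 9.59 in hypoosmotic replicate 3, where the next highest were 7.72 and 6.20. Arg1 was 8.86 in normoosmotic replicate 4, where the other 3 lay between 9.42 and 9.50. Gpt2 was 6.49 in normoosmotic replicate 4, above the other 3. Cdh1 was 8.60 and Car5a 6.65 in normoosmotic replicate 1, each below the other 3. Without normoosmotic replicate 4 the change of Arg1 was 0.61 and it still passed (limma adjusted p = 0.0342).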

How the results depend on the processing

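The count of 4 risen members was 3 or 4 in 8 of the 9 settings other than leaving out an array. Against a minimum fold change of 1.2 it was 0, and the count over all genes was 83. With 1 array left out the members that rose numbered 1 to 4, being 1 when normoosmotic replicate 3 or 4 or hypoosmotic replicate 2 was the one omitted and 2 when it was hypoosmotic replicate 1, while all genes called numbered 468 to 1051. Fewer arrays also give less power. No change of Nags, Arg1, Slc25a15, Rhbg or Gls2 turned its sign in any setting, and log2 changes without 1 array were 0.96 to 1.59 for Nags, 0.61 to 0.83 for Arg1, 0.66 to 0.92 for Slc25a15, 0.45 to 0.61 for Rhbg and 0.32 to 0.51 for Gls2. Changes near 0 turned sign, and the cause was not tested. They were -0.016 for Cps1, -0.0097 for Otc and -0.0019 for Ass1 with array weights, and -0.048, -0.045 and -0.045 with median centring. Without 1 array the ranges were -0.044 to 0.046 for Cps1, -0.03 to 0.043 for Otc, -0.058 to 0.065 for Ass1, -0.13 to 0.038 for Asl and -0.028 to 0.13 for Arg2. The shifts between neighbours were -0.058 to 0.043 for Cps1 minus Otc, -0.065 to 0.085 for Otc minus Ass1, -0.037 to 0.13 for Ass1 minus Asl, -0.19 to 0.11 for Arg1 minus Slc25a15, 0.95 to 1.59 for Nags minus Cps1, 0.63 to 0.90 for Slc25a15 minus Otc and -0.92 to -0.72 for Asl minus Arg1. With the replicate number as a block, 4 members rose and 1029 genes were called in all, but same-numbered arrays correlated at 0.006 to 0.26 in their deviations, not all above 0.1, so the numbers were not taken to pair the samples. For 3 of the 4 numbers the best match was the own number, a hint of pairing from the data and not from the design. Under the block Sirt5 (limma adjusted p = 0.0527) and Tbx3 (limma adjusted p = 0.0586) no longer passed. Paired sign flips of 4 pairs cannot go below an exact p of 0.125. The pair of Gls2 with Glul was not run.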
